A study of Mus musculus with 6 samples.

Results

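Amino acid transporters were examined in HK-2 cells with and without overexpression of USAG-1. The group was a list of 36 genes, chosen by symbol, for carriers of the plasma membrane and the lysosome, without the chains of the cystine importer. Of these, 33 had a row among the 39234 genes of the deposited table, and 28 were among the 18188 genes that passed a filter on low counts and were tested. SLC6A14, SLC6A18 and SLC7A13 were not analysed here. SLC1A2, SLC3A1, SLC7A9, SLC6A19 and SLC38A4 had too few counts to be tested.

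Amino acids cross membranes on solute carriers, which either couple uptake to sodium or protons or exchange one amino acid for another. In the proximal tubule, sodium-coupled carriers and the heteromeric exchangers of the brush border reclaim filtered amino acids, and basolateral exchangers and uniporters pass them to the blood. In dividing cells, the same families supply glutamine, leucine and arginine for growth, and carriers of the lysosomal membrane take part in telling the mTORC1 kinase how much is available. Many transporter genes are also known targets of ATF4, the transcription factor of the amino acid response.

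HK-2 is an immortalized line from human proximal tubule, and RNA of 3 control libraries and 3 libraries with USAG-1 overexpression (USAG-1 OE) was sequenced. USAG-1 is a secreted protein encoded by SOSTDC1. The labels give the genotype WT for all 6 libraries and name no treatment besides the overexpression. They do not say what the control cells received. The study describes overexpression by transient transfection of plasmids, and its cell lines were not authenticated by STR typing. The organism given in the labels is mouse, but the gene identifiers are those of human genes. Nothing in the labels says whether the 3 libraries of a group came from separate cultures, so the p-values measure only the spread between these libraries.

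Library totals ranged from 41236194 to 48699471 counts in control cells and from 42782931 to 45448720 counts in USAG-1 OE cells. Levels are CPM, counts scaled to a common library size with edgeR's TMM method. SOSTDC1 rose from 1.64 ± 0.243 to 101 ± 10.6 CPM (SD, n = 3 each). Of the kidney epithelial markers, PAX8 was at 375 ± 8.57 CPM and KRT8 at 1081 ± 170.2 CPM in control cells (SD, n = 3 each), whereas PAX2 and CDH1 were below 1 CPM in every library. Of the proximal tubule markers, DPP4 was at 186 ± 18.8 CPM, GGT1 at 104.5 ± 17.0 CPM and MME at 17.2 ± 2.12 CPM in control cells (SD, n = 3 each). LRP2 had no count in any library, and CUBN and AQP1 were below 1 CPM in both groups. Mitochondrially encoded genes took 4.8 to 5.6% of the counts in control libraries and 1.5% in USAG-1 OE libraries. All 18 T cell markers were called lower in USAG-1 OE cells, beside 6.91% of all genes tested. Their summed level was 122.5 to 146.6 CPM in control libraries and 15.1 to 20.8 CPM in USAG-1 OE libraries. Control replicate 3 stood apart from the other controls, with a chi-square per degree of freedom of 47.2 and 48.2 against them, compared with 6.79 between control replicates 1 and 2.

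The comparison asked which transporter transcripts differed between USAG-1 OE and control cells. Carriers of glutamine and small neutral amino acids (SLC38A2, SLC38A5), taurine (SLC6A6), creatine (SLC6A8) and GABA (SLC6A13) rose, as did SLC43A2, SLC7A7 and SLC36A4. SLC7A5, the leucine exchanger LAT1, and SLC1A4, a carrier of serine and alanine, fell. The changes were small. The 8 higher genes rose 1.25- to 1.52-fold, and the 2 lower genes were at 0.730 and 0.843 of the control level. A gene was called at an adjusted p under 0.05 in the quasi-likelihood test of edgeR, where p-values were corrected over all genes tested by the Benjamini-Hochberg method.

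These 10 calls were 35.7% of the 28 members tested, beside 15.9% of all genes tested. In the direction of higher expression, 28.6% of the members and 8.95% of all genes were called. For lower expression the shares were 7.14% and 6.91%. Among genes of at least 20 CPM, 47.1% of 17 members and 24.3% of 7704 genes were called. The median log2 fold change was 0.13 over the members tested and -0.02 over all genes tested. At 20 CPM or more the medians lay closer, at 0.10 over the members and 0.04 over the genes. Of the 28 members, 20 had a log2 fold change above 0, as did 47.5% of all genes tested. In CPM, the libraries of both groups lay fully apart for 16 of the 28 members, 57.1%, beside 37.6% of all genes. In 13 of these the USAG-1 OE libraries were higher and in 3 lower, beside 19.4% and 18.1% of all genes. The 20, the 16 and the 13 include SLC7A8, which passed the filter on low counts only through its USAG-1 OE libraries. It also enters the median over the members tested and is not taken as support for a rise. The number of member calls depended on single libraries. Without USAG-1 OE replicate 3, 2 of 29 members were called, 6.90% beside 7.09% of all genes, so the share of members was no longer above that of all genes. Without control replicate 2, 3 of 29 were called, 10.3% beside 8.74% of all genes. Leaving out USAG-1 OE replicate 2 gave 3 of 29, 10.3% beside 5.98%, and leaving out USAG-1 OE replicate 1 gave 4 of 30, 13.3% beside 6.92%. Leaving out control replicate 1 gave 5 of 29, 17.2% beside 10.2%, and leaving out control replicate 3 gave 13 of 30, 43.3% beside 27.0%.

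**Figure D1:**
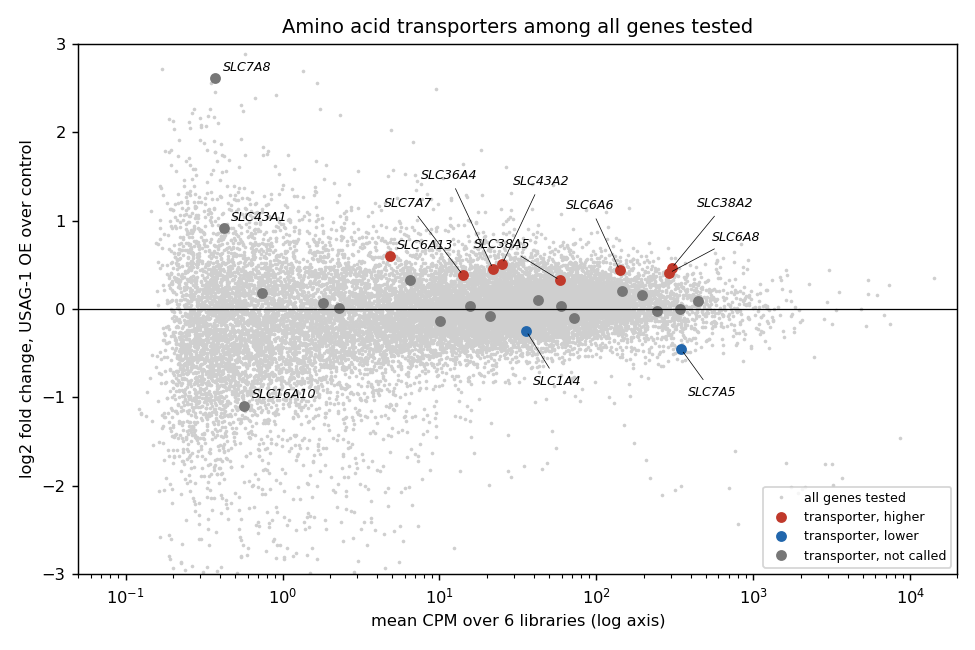
Log2 fold change of USAG-1 OE over control (vertical axis) against mean CPM over the 6 libraries (horizontal, log axis) for all genes tested (light grey) and for the tested amino acid transporters (large points, red higher, blue lower, grey not called). The 94 genes beyond a log2 fold change of 3 in size are not drawn. The called transporters lie between -0.45 and 0.60, and SLC7A8, at 2.62, has a mean of only 0.373 CPM.

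Among the sodium-coupled SNAT carriers of the plasma membrane, SLC38A2 had the smallest p of this class. SLC38A2 (ENSG00000134294; hg38 chromosome 12, 46358188 to 46372773) encodes SNAT2, which brings in small neutral amino acids and is known to be induced when amino acids are scarce. It had 261, 266 and 234 CPM in the control libraries and 358, 352 and 339 CPM in the USAG-1 OE libraries. Every USAG-1 OE library lay above every control library. The group means were 254 ± 17.1 and 349.6 ± 9.93 CPM (SD, n = 3 each). The log2 fold change was 0.46 (standard error 0.06, edgeR, adjusted p = 0.00302), a 1.38-fold rise that was called in all 14 alternative analyses.

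SLC38A1 (ENSG00000111371), the glutamine carrier SNAT1, had the highest mean CPM over the 6 libraries, although SLC7A5 was above it in control replicate 3. It had 419.6, 454 and 414 CPM in control libraries and 464, 470.2 and 440.0 CPM in USAG-1 OE libraries. The groups overlapped, and the log2 fold change of 0.09 was not called (95% interval -0.04 to 0.23). SLC38A1 and SLC38A2 are neighbours on chromosome 12, 88.2 kb apart and with no other gene of the table between them. The log2 ratio of SLC38A2 to SLC38A1 counts within a library was -0.76 ± 0.0687 in control cells and -0.39 ± 0.0250 in USAG-1 OE cells (SD, n = 3 each). This ratio does not depend on the scaling of libraries. Its difference of 0.37 had an exact permutation p of 0.1 (two-sided), which no comparison of 3 with 3 libraries can undercut, and 0.12 after Benjamini-Hochberg correction over 6 ratios, which were chosen after the values were seen.

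SLC38A5 (ENSG00000017483; hg38 chromosome X, 48458537 to 48470177) encodes SNAT5, a system N carrier of glutamine and histidine. It had 50.3, 48.8 and 57.5 CPM in control libraries and 63.2, 66.2 and 66.9 CPM in USAG-1 OE libraries. The groups did not overlap, and control replicate 3 was the nearest to the USAG-1 OE libraries. This was a log2 fold change of 0.32 (standard error 0.08, edgeR, adjusted p = 0.0246), and the call was lost whenever a library was dropped, except for control replicate 3. SLC38A4, the fourth SNAT gene of this class, had 4 to 12 counts per library and was not tested. Summed over the 4 genes, the level was 705 to 769 CPM in control libraries and 846 to 888 CPM in USAG-1 OE libraries.

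Of the other SLC6 carriers, listed apart from the apical tubular class, 3 of 5 tested rose and none fell. This was 60.0%, beside 8.95% of all genes called higher. For genes of at least 20 CPM the share called higher was 16.4%. SLC6A6 (ENSG00000131389; hg38 chromosome 3, 14402576 to 14489349) encodes the taurine transporter, which cells use to take up taurine as an osmolyte. It had 117, 115 and 127 CPM in control libraries and 162, 163 and 162 CPM in USAG-1 OE libraries. The USAG-1 OE libraries lay close together and all of them above the controls. Its log2 fold change was 0.44 (standard error 0.06, edgeR, adjusted p = 0.00263), which is 1.36-fold, and it was called in all 14 alternative analyses.

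SLC6A8 (ENSG00000130821; hg38 chromosome X, 153687926 to 153696588) encodes the creatine transporter. Its level was 233, 234.5 and 281 CPM in control libraries and 325, 341 and 327 CPM in USAG-1 OE libraries. Control replicate 3 was the highest control and still lay below each USAG-1 OE library. The log2 fold change was 0.41 (standard error 0.08, edgeR, adjusted p = 0.0124). The call was lost without control replicate 2 and without each USAG-1 OE replicate in turn, with log2 fold changes of 0.36 to 0.42. SLC6A10P, a related pseudogene on chromosome 16 whose reads may be shared with SLC6A8, had a mean of 0.447 CPM and overlapping groups.

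SLC6A13 (ENSG00000010379; hg38 chromosome 12, 220621 to 262873) encodes GAT2, which takes up GABA and related compounds. It had 3.83, 3.89 and 3.80 CPM in control libraries and 5.44, 5.75 and 6.28 CPM in USAG-1 OE libraries. The groups did not overlap, and the rise of 1.52-fold was the largest among the called transporters. This was a log2 fold change of 0.60 (standard error 0.14, edgeR, adjusted p = 0.0233), and the call was lost with the replicate block and when any library except control replicate 3 was dropped. SLC6A15, a carrier of branched-chain amino acids and proline, had 59.8, 59.9 and 55.5 CPM in control libraries and 59.0, 59.6 and 61.2 CPM in USAG-1 OE libraries. Its groups overlapped, and the 95% interval of the log2 fold change was -0.10 to 0.18. SLC6A9, the glycine transporter GlyT1, was at 2.29 ± 0.371 and 2.31 ± 0.269 CPM (SD, n = 3 each) and was not called.

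**Figure D2:**
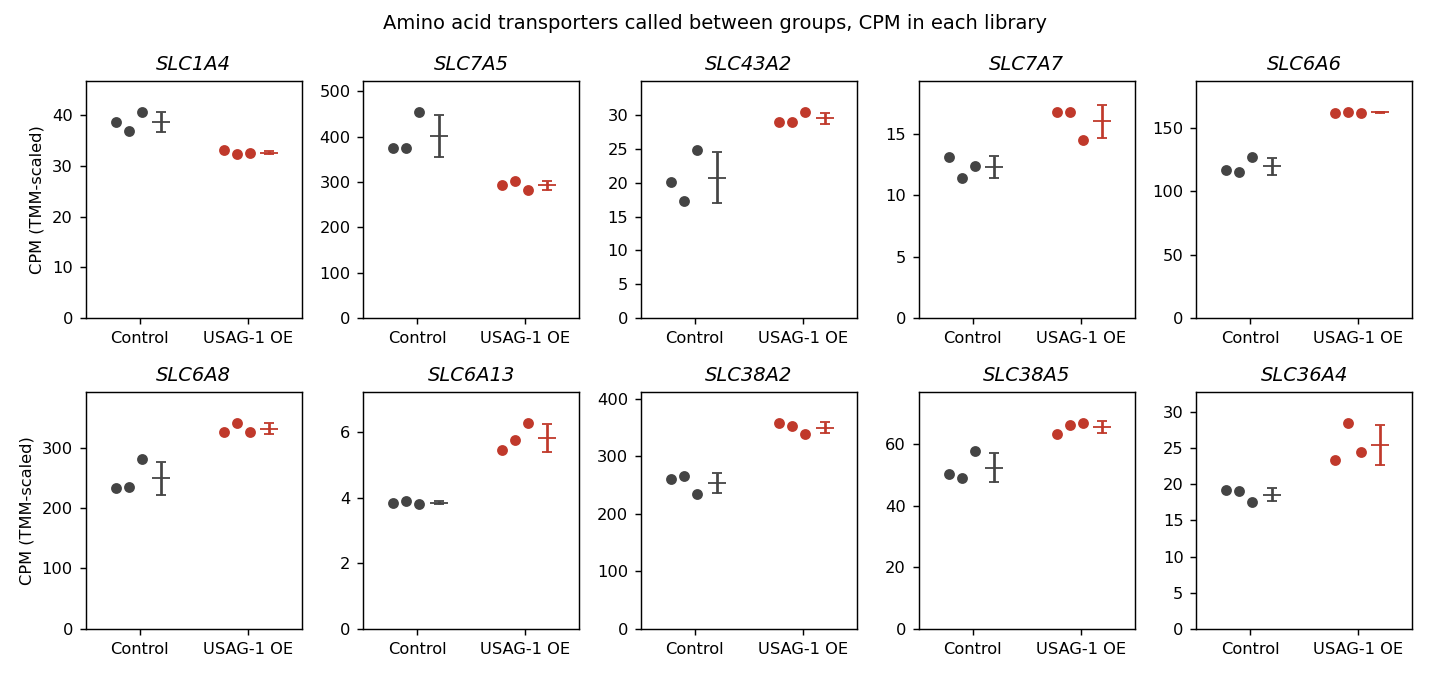
CPM in each library (points) for the 10 transporters called between control (dark grey) and USAG-1 OE (red) cells, with the mean and SD of each group (n = 3) beside the points and a vertical axis from 0. SLC1A4 and SLC7A5 are lower and the other 8 are higher in every USAG-1 OE library than in any control library.

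The system L and aromatic carriers moved in both directions. SLC7A5 (ENSG00000103257; hg38 chromosome 16, 87830023 to 87869507) encodes LAT1, which exchanges intracellular glutamine for leucine and other large neutral amino acids. It had 374, 375 and 454 CPM in control libraries and 294, 301 and 282 CPM in USAG-1 OE libraries. Control replicate 3 was the highest, and the groups did not overlap. The group means were 401 ± 46.1 and 293 ± 9.71 CPM (SD, n = 3 each). Its log2 fold change was -0.45 (standard error 0.08, edgeR, adjusted p = 0.00941), and it was -0.35 without control replicate 3, where the call held. Without USAG-1 OE replicate 3 the call was lost at -0.43 (edgeR, adjusted p = 0.0570).

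Between the groups, the T cell markers and mitochondrially encoded genes fell along with SLC7A5, and their part in its fall was not tested. In bulk RNA, fewer cells of a type and less RNA per cell cannot be told apart. Without mitochondrially encoded genes in the library sizes, SLC7A5 changed by -0.45. That setting alters only the scaling of libraries, so it does not bear on the part of the T cell markers or mitochondrially encoded genes. The pseudogenes SLC7A5P1 and SLC7A5P2, which share sequence with SLC7A5, had means of 0.195 and 0.243 CPM.

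LAT1 reaches the membrane only with its heavy chain, encoded by SLC3A2, which lies outside the list and was named after its values were seen. SLC3A2 had 169.5, 170.2 and 206 CPM in control libraries and 146, 155 and 159 CPM in USAG-1 OE libraries. These groups did not overlap either, but the log2 fold change of -0.24 was not called (edgeR, adjusted p = 0.0921). The log2 ratio of SLC7A5 to SLC3A2 counts was 1.14 ± 0.00325 in control cells and 0.93 ± 0.0955 in USAG-1 OE cells (SD, n = 3 each). The difference of -0.21 gave p = 0.1 in the exact permutation test, the smallest it can give.

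SLC43A2 (ENSG00000167703; hg38 chromosome 17, 1569268 to 1628840) encodes LAT4, a uniporter of branched-chain amino acids, phenylalanine and methionine. It had 20.1, 17.3 and 24.8 CPM in control libraries and 29.0, 29.0 and 30.4 CPM in USAG-1 OE libraries. The controls were spread widely, but none reached a USAG-1 OE library. The log2 fold change was 0.51 (standard error 0.13, edgeR, adjusted p = 0.0296), and the call held in 8 of 14 alternatives. SLC43A3, which carries purine nucleobases rather than amino acids despite its family, had 342, 326 and 360.3 CPM in control libraries and 333, 346 and 347 CPM in USAG-1 OE libraries. Its groups overlapped, with a 95% interval of the log2 fold change from -0.13 to 0.13.

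The remaining system L and aromatic carriers were all below 1 CPM. SLC7A8, which encodes LAT2, the basolateral counterpart of LAT1 in the kidney, had 0, 8 and 6 counts in control libraries and 34, 34 and 18 counts in USAG-1 OE libraries. All USAG-1 OE libraries were above all controls. The summed counts of 14 and 86 gave a ratio of 6.19 for equal library size, with an exact 95% counting interval of 3.50 to 11.8 that leaves out variation between replicates. It was not called by edgeR (adjusted p = 0.0580), but DESeq2 (adjusted p = 0.0118), limma-voom (adjusted p = 0.0480) and edgeR without control replicate 3 (adjusted p = 0.0489) called it. SLC7A8 passed the filter on low counts only through its USAG-1 OE libraries. It was not tested where each library needed at least 10 counts. The ratio and these calls are therefore not taken as support for a rise. SLC16A10, the aromatic uniporter TAT1, had 32, 38 and 34 counts in control libraries and 11, 24 and 13 in USAG-1 OE libraries, with no overlap in CPM. Its log2 fold change of -1.09 was not called (edgeR, adjusted p = 0.116), and neither was that of SLC43A1, at 0.92.

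**Figure D3:**
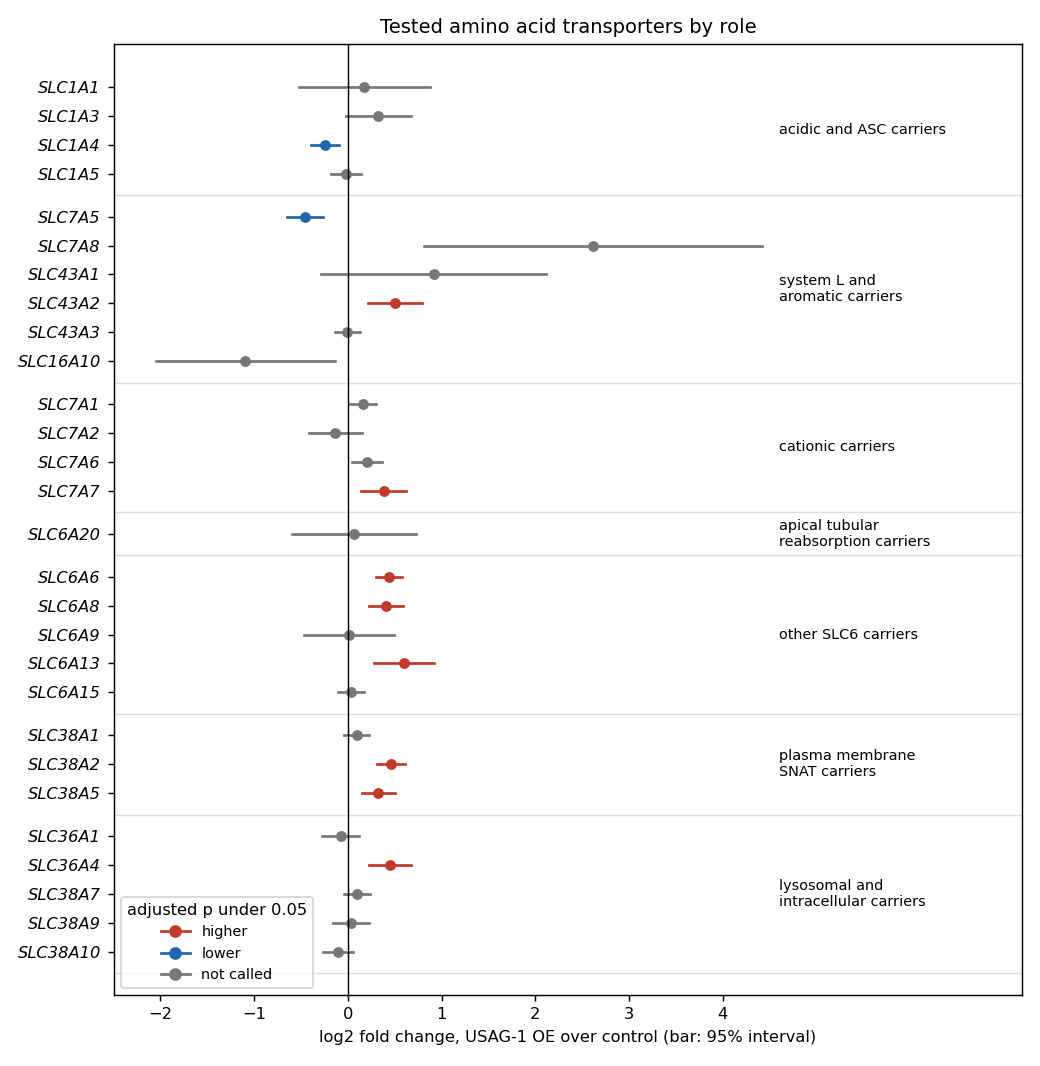
Log2 fold change of USAG-1 OE over control (points) with its 95% interval (bars) for the 28 transporters tested, grouped by role (red higher, blue lower, grey not called at an adjusted p under 0.05). The 3 widest intervals belong to SLC7A8, SLC43A1 and SLC16A10, whose means are below 1 CPM.

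Among the cationic carriers, the call was for SLC7A7 alone. SLC7A7 (ENSG00000155465; hg38 chromosome 14, 22773222 to 22829820) encodes y+LAT1, the basolateral exchanger of arginine and lysine that is defective in lysinuric protein intolerance. It had 13.1, 11.4 and 12.4 CPM in control libraries and 16.8, 16.8 and 14.5 CPM in USAG-1 OE libraries. The groups did not overlap, with USAG-1 OE replicate 3 nearest to the controls. This was a log2 fold change of 0.38 (standard error 0.11, edgeR, adjusted p = 0.0443), and the call was lost in 7 of the 14 alternatives.

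SLC7A1 and SLC7A6 also lay higher in each USAG-1 OE library but were not called. SLC7A1, the arginine transporter CAT1, had 176, 182 and 194 CPM in control libraries and 208, 211 and 198 CPM in USAG-1 OE libraries. Its log2 fold change was 0.16 (edgeR, adjusted p = 0.108), and it was called with library sizes alone (edgeR, adjusted p = 0.0441) and without control replicate 3 (edgeR, adjusted p = 0.00425). SLC7A6, which encodes y+LAT2, had 143, 137 and 127.5 CPM in control libraries and 166, 147 and 156 CPM in USAG-1 OE libraries. Its log2 fold change was 0.20 (edgeR, adjusted p = 0.0879), and it was called only without control replicate 3. SLC7A6 overlaps SLC7A6OS on the other strand, which was at 37.8 CPM, so reads between them may be shared. SLC7A2, which encodes CAT2, had 10.6 ± 1.05 and 9.67 ± 0.764 CPM (SD, n = 3 each) with overlapping groups.

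In the SLC1 family, SLC1A4 fell. SLC1A4 (ENSG00000115902; hg38 chromosome 2, 64988477 to 65023865) encodes ASCT1, an exchanger of alanine, serine and cysteine. It had 38.6, 36.8 and 40.6 CPM in control libraries and 33.0, 32.3 and 32.4 CPM in USAG-1 OE libraries. Each USAG-1 OE library was below each control library. Its log2 fold change was -0.25 (standard error 0.06, edgeR, adjusted p = 0.0377), the smallest in size among the calls, and the call was lost in 7 of 14 alternatives. Between the groups, the T cell markers and the mitochondrial share fell as well, as for SLC7A5. The same shift between groups lay beside the transporters that rose, and its part in any of these changes was not tested.

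SLC1A5, the glutamine exchanger ASCT2, had 227, 241 and 264 CPM in control libraries and 232, 241 and 249 CPM in USAG-1 OE libraries. The groups overlapped, and the 95% interval of the log2 fold change was -0.18 to 0.14. The glutamate carriers were scarce. SLC1A3 (EAAT1) was at 5.75 ± 0.733 CPM in control cells and 7.21 ± 0.721 CPM in USAG-1 OE cells (SD, n = 3 each), without overlap and without a call. SLC1A1 (EAAT3) was below 1 CPM in every library, and SLC1A2 (EAAT2) had at most 8 counts in a library.

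Of the lysosomal and intracellular carriers, 1 of 5 was called and it rose, 20% beside the 15.9% of all genes that were called. For genes of at least 20 CPM the share called was 24.3%. SLC36A4 (ENSG00000180773; hg38 chromosome 11, 93144174 to 93197991) encodes PAT4, a high-affinity carrier of proline and tryptophan that has been linked to mTORC1. It had 19.2, 19.0 and 17.5 CPM in control libraries and 23.3, 28.5 and 24.5 CPM in USAG-1 OE libraries. USAG-1 OE replicate 2 was the highest, and the groups did not overlap. The log2 fold change was 0.45 (standard error 0.10, edgeR, adjusted p = 0.0175). The call was lost without control replicate 2 and without USAG-1 OE replicate 2 or 3.

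Its paralogue SLC36A1, the lysosomal proton-coupled carrier PAT1, had 20.9, 20.7 and 22.7 CPM in control libraries and 21.8, 20.2 and 19.0 CPM in USAG-1 OE libraries. The groups overlapped. The log2 ratio of SLC36A4 to SLC36A1 counts was -0.21 ± 0.147 in control cells and 0.32 ± 0.204 in USAG-1 OE cells (SD, n = 3 each), a difference of 0.53 with the smallest p that the exact permutation test allows, 0.1. Of the other ratios compared, SLC43A2 to SLC43A3 differed by 0.53 and SLC1A4 to SLC1A5 by -0.23, both with an exact permutation p of 0.1. SLC7A7 to SLC7A6 overlapped between groups, with a difference of 0.18 (exact permutation p = 0.2). The pairs were chosen after their values were seen, and each p of 0.1 became 0.12 after Benjamini-Hochberg correction. The ratios use the same counts as the calls and add no support to them. SLC38A7, which exports glutamine from lysosomes, had 42.1, 39.3 and 42.2 CPM in control libraries and 44.2, 43.0 and 45.1 CPM in USAG-1 OE libraries. These groups did not overlap, but the log2 fold change of 0.10 was not called (95% interval -0.04 to 0.24). SLC38A10 had 70.0, 74.9 and 78.9 CPM in control libraries and 66.5, 68.0 and 73.5 CPM in USAG-1 OE libraries, with overlapping groups. SLC38A9, the arginine sensor of the lysosome, was at 15.4 ± 0.373 and 15.7 ± 0.503 CPM (SD, n = 3 each) and was not called.

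The analysed members of the apical tubular class were at or near 0 in both groups. SLC6A6 and SLC6A8 were listed in another class, with the levels given above, so this covers only the carriers named here. SLC6A19, the main neutral amino acid carrier of the brush border, had no count in any library. This allows a level of up to 0.0608 to 0.0719 CPM per library (3 counts, counting error only). SLC7A9 had 2 counts in a single control library. SLC3A1, its heavy chain, had at most 23 counts in a library and overlaps PREPL, a gene at 31.4 CPM, on the other strand. SLC6A20, which carries proline, was at 1.76 ± 0.249 and 1.84 ± 0.618 CPM (SD, n = 3 each) and was not called.

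Ranked by mean share over the 6 libraries, SLC38A1, SLC7A5, SLC43A3, SLC38A2, SLC6A8, SLC1A5 and SLC7A1 together took 74.9 to 77.2% of the counts of all members in a library, as shares of reads that are not corrected for transcript length. The share of SLC7A5 ranged from 9.68 to 15.9%. The summed level of all members was 2669.7 to 2850.4 CPM in control libraries and 2915 to 2981 CPM in USAG-1 OE libraries, a ratio of means of 1.08. By role, the summed level without overlap between groups was higher in USAG-1 OE cells for the cationic, the SNAT and the other SLC6 carriers, at ratios of 1.13, 1.19 and 1.29. For the system L and aromatic carriers it was lower, at a ratio of 0.869. That fall followed SLC7A5 alone among the abundant genes of this class, with means of 401 and 293 CPM. SLC43A3 stayed at 343 and 342 CPM, and SLC43A2 rose from 20.7 to 29.5 CPM.

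**Figure D4:**
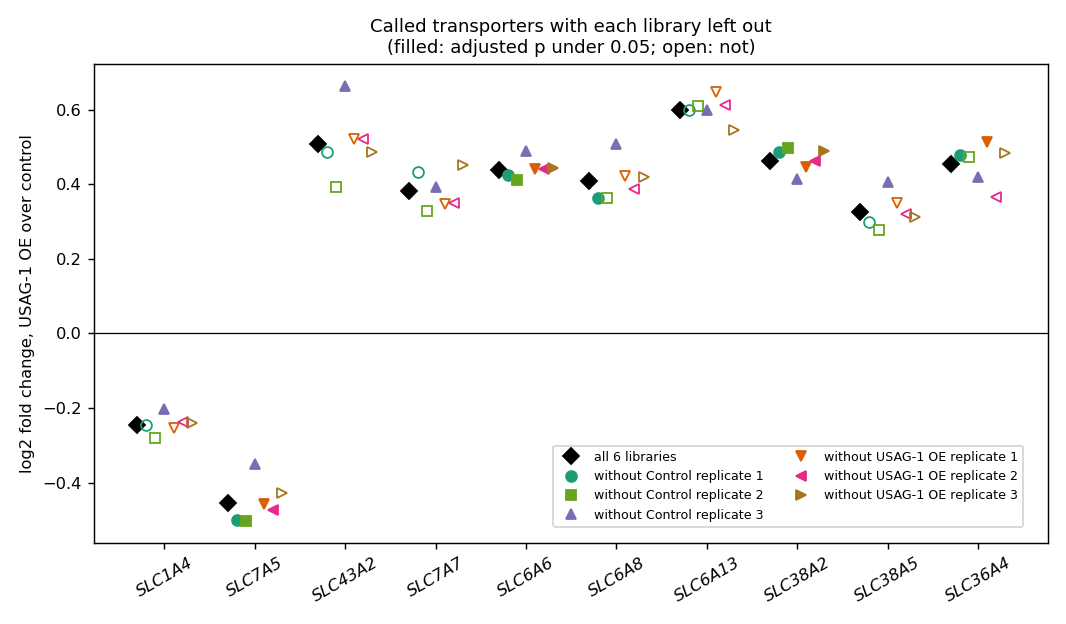
Log2 fold change of USAG-1 OE over control (vertical axis) for the 10 called transporters with all 6 libraries (black diamonds) and with each library left out in turn (coloured symbols), filled where the adjusted p was under 0.05. No gene changes direction, SLC6A6 and SLC38A2 keep their call throughout, and all 10 keep it without control replicate 3.

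Genes of the ATF4 stress response and of amino acid sensing were described from lists alongside the transporters. The first list, of 14 regulators, also holds the kinases EIF2AK1, EIF2AK2 and EIF2AK3, so it is not particular to amino acid supply. Of these 14 regulators, 7 rose and none fell, which is 50.0% beside 8.95% of all genes tested that were called higher. For genes of at least 20 CPM the share called higher was 16.4%. The median log2 fold change of the 14 regulators was 0.23. ATF3, a stress-induced transcription factor, had 8.98, 10.4 and 11.1 CPM in control libraries and 17.7, 21.8 and 21.7 CPM in USAG-1 OE libraries, a log2 fold change of 1.01 (edgeR, adjusted p = 0.00195). TRIB3, a pseudokinase that restrains ATF4 signalling, had 55.7, 59.5 and 70.9 CPM in control libraries and 96.2, 103.5 and 102 CPM in USAG-1 OE libraries, a log2 fold change of 0.70 (edgeR, adjusted p = 0.00257). Both genes lay apart between the groups in every library. PPP1R15B and ATF5 rose by 0.24 and 0.31 on the log2 scale. ATF4 itself rose by 0.23, EIF2AK4, the kinase that senses uncharged tRNA, by 0.31, and DDIT3 by 0.61. The rises of ATF4 (edgeR, adjusted p = 0.0296), EIF2AK4 (edgeR, adjusted p = 0.0217) and DDIT3 (edgeR, adjusted p = 0.0213) are named beyond the rule of 4 genes per list, after their values were seen.

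Of 29 tested genes of amino acid sensing at the lysosome, 6 rose and 1 fell. This is 24.1% beside 15.9% of all genes and 24.3% of genes of at least 20 CPM. The median log2 fold change of the 29 genes was 0.01. CASTOR2, related to the arginine sensor CASTOR1, had 16.0, 17.2 and 16.2 CPM in control libraries and 28.7, 25.1 and 26.8 CPM in USAG-1 OE libraries, a log2 fold change of 0.71 (edgeR, adjusted p = 0.00163). RRAGC, a Rag GTPase that recruits mTORC1 to the lysosome, rose by 0.51 on the log2 scale, FNIP2, a partner of folliculin, by 0.52 and RRAGD by 0.43. The gene that fell was LAMTOR2, a subunit of the Ragulator scaffold, with a log2 fold change of -0.42 (edgeR, adjusted p = 0.0289). MTOR and FNIP1 completed the 6 genes that rose. LAMTOR2, MTOR and FNIP1 were named after their values were seen.

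**Figure D5:**
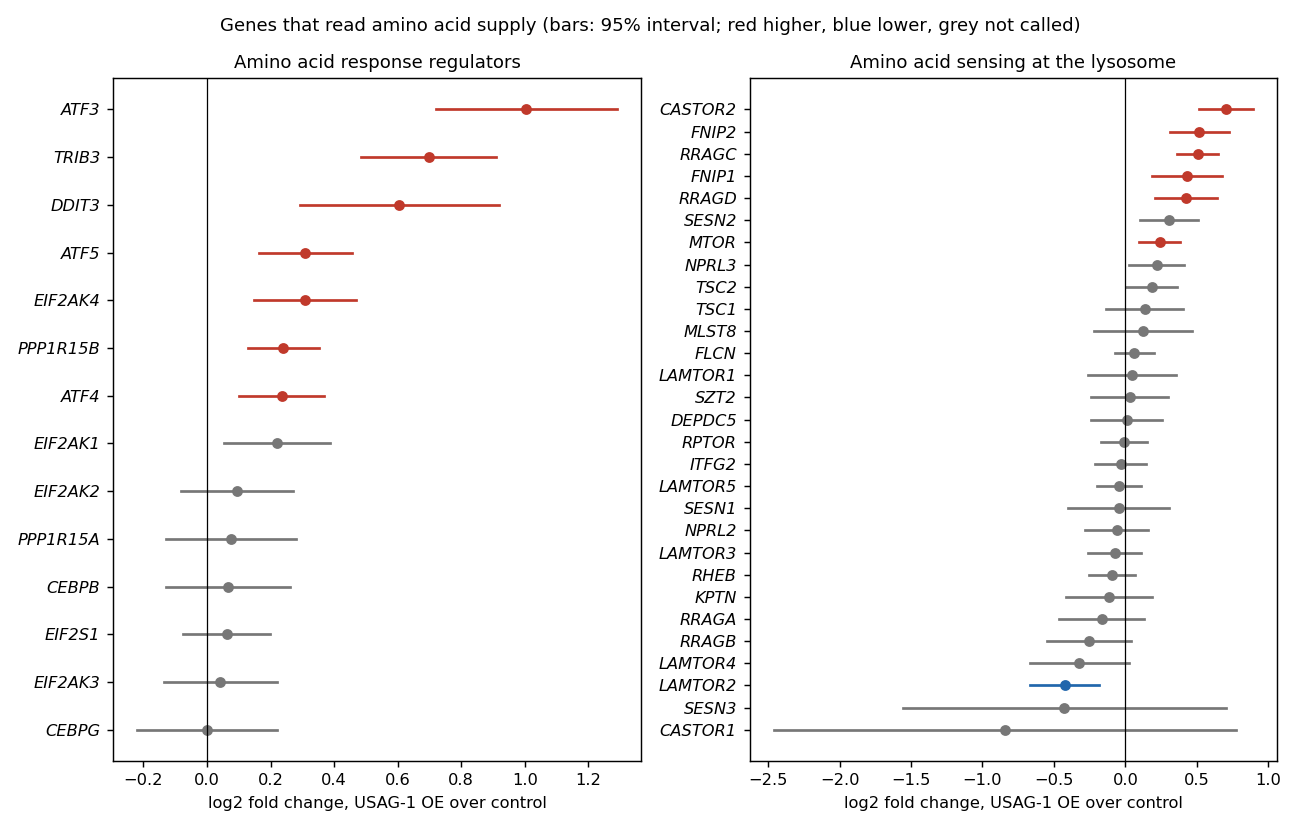
Log2 fold change of USAG-1 OE over control with its 95% interval for the 14 regulators of the ATF4 stress response (left, titled amino acid response regulators) and the 29 tested genes of amino acid sensing at the lysosome (right). Colours are red for higher, blue for lower and grey for not called. The 7 called response regulators are all higher, and the called sensing genes are 6 higher and 1 lower.

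Of 11 tested mitochondrial amino acid carriers, 2 rose and none fell. SFXN3, a serine carrier of the inner membrane, rose by 0.39 on the log2 scale and SLC25A44, a branched-chain amino acid carrier, by 0.22. These were 18.2% of that list, near the 15.9% of all genes that were called, and its median log2 fold change was 0.04. Of 13 tested further carriers and partner chains, 2 rose and none fell, 15.4% beside the same 15.9%. Among them was SLC7A11, the cystine exchanger, with 10.97, 11.2 and 10.2 CPM in control libraries and 29.2, 26.9 and 23.1 CPM in USAG-1 OE libraries.

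Markers of other cell types were also measured. Of 10 myeloid markers, 1 rose and 2 fell, 30.0% beside the 15.9% of all genes called, with summed levels of 115 to 206 CPM in control libraries and 167 to 188 CPM in USAG-1 OE libraries. B cell markers summed to 3.81 to 5.75 CPM in control and 3.51 to 5.03 CPM in USAG-1 OE libraries, and markers of platelets and erythroid cells to 8.19 to 110.9 CPM and 8.84 to 77.9 CPM, so that both groups overlapped. Of 6 tested proximal tubule markers, MME, DPP4 and GGT1 rose and none fell, 50.0% beside the 8.95% of all genes called higher. Of 8 tested kidney epithelial markers, PAX8 and CDH2 rose and none fell, 25% beside 8.95%. All 8 had a mean of at least 20 CPM, and 16.4% of genes at that level were called higher. The part of any of these lists in the transporter values was not tested.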

How the data were processed

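RNA of 3 control and 3 USAG-1 OE libraries of HK-2 cells was analysed, with groups and replicate numbers from the sample titles. The authors deposited 1 table of raw counts per gene, not normalized, with gene positions and symbols. Its name speaks of FPKM, but its values are whole numbers under count headings. The submitters' processing notes name cutadapt 1.9, FastQC and hg38. The aligner, the counting tool and its use of strand are not given in the sources used here. The labels describe poly(A) selection and strand-marked paired libraries.

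After filterByExpr and TMM scaling, USAG-1 OE was tested against control in edgeR 4.0.16 (quasi-likelihood, no replicate block, R 4.3.3). Benjamini-Hochberg adjustment covered 18188 genes, with a call at 0.05. The study's methods name DESeq2 beside public data sets, and no test for these libraries in particular. DESeq2 1.42.0 and limma-voom (limma 3.58.1) were alternatives, beside other scalings, other filters, a replicate block and each library left out. Standard errors are the size of the log2 fold change over the square root of F, and 95% intervals use the fit's degrees of freedom. CPM is per TMM-scaled library, and 3 counts equal 0.0608 to 0.0719 CPM. Intervals on counts and floors take in counting error alone, because reads carry no molecular identifiers and may copy one molecule. In simulated data with these library sizes and 17698 genes tested, edgeR recovered 71.0% of changes of 1 and 97.0% of changes of 2 on the log2 scale, with 5.08% of calls false. Only 200 genes were changed, and no outlying library such as control replicate 3 was simulated. Changes of the size called among the transporters, 0.25 to 0.60, were not simulated, so these shares do not cover them.

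Called members and those with a mean of at least 20 CPM are given per library and the others by counts and ranges, as are called genes of the pathway lists, up to 4 a list by smallest p. The members and lists were chosen with earlier results of these data known, so no list was tested. Ratios of gene pairs were chosen after seeing values. Levels of different genes were not compared per length, because no transcript lengths of this build were used here, and no human sequences were used. Of the 33 members with a row, 21 overlap another gene of the table, where reads may be shared. Some genes of the lists are not reported here.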

Additional observations from a re-analysis of the deposited data

How the results depend on the processing

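Across 14 alternatives (other scalings, tests and filters, a replicate block, and each library left out), the 10 called transporters kept their direction in all 140 values, and SLC6A6 and SLC38A2 kept their call in all. Leaving out 1 library gave 1137 to 5091 calls over all genes (2884 with all), 2 to 13 member calls (10), or 6.90 to 43.3% of members beside 5.98 to 27.0% of genes, 2 to 11 higher (8) and 0 to 2 lower (2). Fewer libraries leave fewer residual degrees of freedom, but the cause of the rise to 13 without control replicate 3 was not tested. Without the filter on low counts, 7 of 32 members (21.9%, beside 6.26% of all genes) were called and 1 of them was lower. With the replicate block, 7 of 28 members (25%, beside 13.1% of all genes) were called and 1 of them was lower, since SLC1A4, SLC7A7 and SLC6A13 lost their call. Same-numbered libraries did not deviate together (correlations of 0.07, -0.05 and 0.04), so the numbers do not show pairs. The members' median log2 fold change was 0.09 to 0.16. Directions reversed for 4 uncalled genes. SLC1A5 ranged from -0.0664 to 0.0477 over the libraries left out, and was above 0 without control replicate 3 and, at 0.0089, without USAG-1 OE replicate 1. SLC43A3 ranged from -0.0395 to 0.0405, above 0 without control replicate 3 and, at 0.0174, without USAG-1 OE replicate 1, and it was at 0.0136 with library sizes alone. SLC6A20 ranged from -0.19 to 0.29, below 0 without USAG-1 OE replicate 3 and, at -0.03, without control replicate 1. SLC6A9 ranged from -0.11 to 0.11, below 0 without control replicate 2 and, at -0.0183 and -0.04, without USAG-1 OE replicates 2 and 3. For members under 1 CPM, counts limit the precision.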
